A study of Mus musculus with 6 samples.

Results

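The triggering receptor expressed on myeloid cells (TREM) system is described here through 10 of the 46078 genes with an entry in the count tables. They were taken by symbol: 5 TREM receptors (*Trem2*, *Trem1*, *Trem3*, *Treml2* and *Treml4*), the 2 transmembrane adaptors *Tyrobp* and *Hcst*, and 3 enzymes that act downstream or against the pathway (*Syk*, *Plcg2* and *Inpp5d*). All 10 symbols were found, each with 1 Ensembl identifier. Bulk RNA-Seq was performed on 3 infarcts and on 3 samples of the equivalent contralateral cortex from wild type C57BL/6J male mice aged 3 months, 7 weeks after stroke by distal middle cerebral artery occlusion with hypoxia. Both regions therefore come from mice that had a stroke, and neither group is cortex of an uninjured mouse. The labels number the samples 1 to 3 in each region without tying an infarct to the cortex of the same mouse, and do not state that the samples of a region are separate mice, so that *p* values measure the spread between these libraries, which may be technical. The question addressed is how the transcripts of a lipid-sensing receptor pathway of phagocytes differed between a chronic infarct and cortex of the other hemisphere.

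TREM receptors are single-pass membrane proteins of myeloid cells, and most of them have no signaling motif of their own. A charged residue in the membrane pairs them with DAP12, the product of *Tyrobp*, whose immunoreceptor tyrosine-based activation motif (ITAM) is phosphorylated by Src family kinases and then recruits the kinase SYK. SYK activates phospholipase C gamma (*Plcg2*), while the lipid phosphatase SHIP1 (*Inpp5d*) removes a phosphate from the PI3K product PIP3 and so limits the signal. In brain, TREM2 is known from microglia, where it binds lipids and apolipoproteins and supports the response to myelin debris, and inherited loss of TREM2 or DAP12 causes Nasu-Hakola disease.

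Counts on genes totaled 12146959 to 13427057 in infarcts and 11943570 to 19933962 in contralateral cortices. Expression is given as CPM, counts per 1000000 counts of the TMM-scaled library, as the mean ± SD of 3 libraries. Genes were tested for a difference between regions with edgeR's quasi-likelihood test, and calls of upregulated or downregulated genes required a Benjamini-Hochberg adjusted *p* under 0.05 and a log2 fold change beyond 1. Of 15554 genes that passed the filter on low counts, 25.7% were upregulated in infarcts and 20.9% were downregulated. The median log2 fold change of all tested genes was 0.03, and using plain library totals for scaling moved all genes upward by a median of 0.20.

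Transcripts of the TREM system were higher in infarcts than in contralateral cortices at every level of the pathway, from receptors to adaptors to enzymes. Of the 10 members, 8 passed the filter and 8 were upregulated, beside the 25.7% of all tested genes, and *Trem1* and *Trem3* had too few counts to be tested. For none of the 10 did the infarct libraries overlap the contralateral libraries, though for *Trem3* this rests on 3, 2 and 1 counts against 0. How many of all genes were without overlap was not counted, so this only describes the members. The tested members had a median log2 fold change of 4.75, or 4.65 with *Treml4* placed at the lower bound of its change described below. *Treml4*, *Treml2* and *Hcst* reached the filter through the infarct libraries, and a gene that does so had to differ. When every library was required to hold 10 counts, 5 members could be tested and 5 were upregulated (*Trem2*, *Tyrobp*, *Syk*, *Plcg2* and *Inpp5d*). In bulk samples, fewer or more cells of a type cannot be told apart from less or more RNA per cell. Of 12 microglia and macrophage markers, 11 were upregulated, with a summed level of 2302.5 to 2893.9 CPM in infarcts against 365 to 475 CPM contralaterally, and all 6 neuron markers were downregulated, from 7034 to 8238.2 CPM in contralateral cortices to 464 to 1207.4 CPM in infarcts. Their part in the differences of the TREM genes was not tested. The 25.7% of all tested genes that were upregulated is also the share to set beside the marker counts below.

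**Figure D1:**
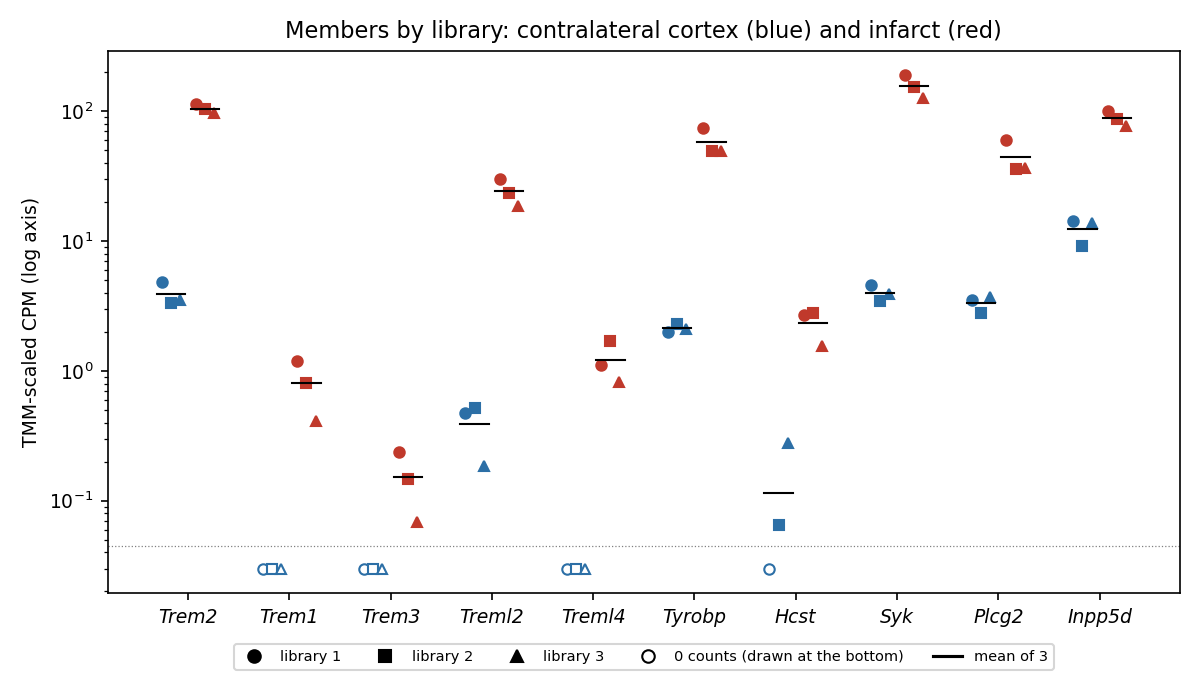
TMM-scaled CPM on a log axis for the 10 members in each library, with contralateral cortices in blue, infarcts in red and the mean of 3 libraries as a bar; open symbols below the dotted line are libraries with 0 counts. All infarct values lie above all contralateral values of the same gene, from *Trem3* with 0.0683 to 0.239 CPM in infarcts to *Syk* with 126 to 189 CPM. For *Trem3* this rests on 3, 2 and 1 counts against 0, and how many of all genes lack overlap was not counted.

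Upstream sequence is shown for 3 members on which the values below turn: *Trem2*, the receptor with the most counts, *Treml4*, a receptor with counts in infarcts and none in contralateral cortex, and *Inpp5d*, the member with the smallest change. RefSeq windows (GRCm38.p6) were found for 7 of the 10 members, as 8 windows since *Syk* has 2, and there was no entry for *Tyrobp*, *Trem3* and *Treml2*. Each line gives the 250 bases before the annotated start, 5′ to 3′ on the plus strand, from chr17:48346151-48346400, chr17:48264045-48264294 and chr1:87620062-87620311. Capitals mark GAGGAA or its reverse complement TTCCTC, the core letters bound by PU.1, the transcription factor of the myeloid lineage.
Trem2: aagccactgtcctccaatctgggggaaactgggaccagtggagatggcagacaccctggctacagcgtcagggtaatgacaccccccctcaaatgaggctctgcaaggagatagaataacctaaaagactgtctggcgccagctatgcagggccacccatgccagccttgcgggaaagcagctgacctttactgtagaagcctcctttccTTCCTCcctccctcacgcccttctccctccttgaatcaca
Treml4: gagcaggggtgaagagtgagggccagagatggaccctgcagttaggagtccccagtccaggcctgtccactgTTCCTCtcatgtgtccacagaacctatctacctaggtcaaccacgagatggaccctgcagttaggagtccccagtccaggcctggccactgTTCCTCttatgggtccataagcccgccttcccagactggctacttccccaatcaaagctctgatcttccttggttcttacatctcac
Inpp5d: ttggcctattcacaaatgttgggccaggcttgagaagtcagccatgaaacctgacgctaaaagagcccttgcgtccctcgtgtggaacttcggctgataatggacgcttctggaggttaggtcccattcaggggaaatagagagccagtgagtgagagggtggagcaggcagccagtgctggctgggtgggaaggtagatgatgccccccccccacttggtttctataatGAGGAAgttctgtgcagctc
The core, searched on both strands, was in 5 of the 8 member windows and in 23.3% of 32851 windows of the same length in the table. In *Trem2* it began 40 bases before the start, in *Inpp5d* 20 bases, and in *Treml4* at 178 and 87 bases. *Trem1* held it at 162 bases, and the second *Syk* window at 9 bases. A loose AP-1-like pattern, TGANTCA with any base at N, was in 1 of the 8 windows and in 6.75% of all windows. The match lay 9 bases before the *Trem2* start, without overlap with the PU.1 core. It reads TGAATCA there, and stricter AP-1 letters were not searched. These are matches of letters and not measured binding sites.

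*Trem2*, the lipid and apolipoprotein receptor of microglia and macrophages, lies on chr17:48346401-48354147 (GRCm38, plus strand) in a cluster of TREM genes. It had 113, 104 and 97.5 CPM in infarcts 1, 2 and 3, and 4.81, 3.32 and 3.51 CPM in contralateral cortices 1, 2 and 3. The infarcts lay close together, far above every contralateral library. The means were 105 ± 7.74 and 3.88 ± 0.809 CPM (SD, n = 3 each), a 26.7-fold difference with a log2 fold change of 4.74 (SE 0.20, edgeR adjusted *p* = 1.64e-07). Without any 1 library the log2 fold change was between 4.63 and 4.93.

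*Treml2*, a receptor of B cells, macrophages and neutrophils that is not known to pair with DAP12, lies on chr17:48299498-48312533. It had 378, 322 and 276 counts in infarcts against 9, 8 and 2 counts contralaterally. Scaled, these were 30.1, 23.6 and 18.8 CPM against 0.47, 0.521 and 0.185 CPM, so that the receptor was near the detection limit in contralateral cortex and clearly counted in each infarct. The log2 fold change was 5.84 (SE 0.34, edgeR adjusted *p* = 6.06e-07), a 57.3-fold difference. B cell markers moved in the same direction: 6 of 6 were upregulated, 3 of them with 3 or fewer counts in each contralateral cortex, and their summed level was 307, 153 and 133 CPM in infarcts 1, 2 and 3 and 1.04 to 1.15 CPM in contralateral cortices. The part of B cells in the *Treml2* difference was not tested.

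*Treml4*, a receptor that binds dying cells and pairs with DAP12, lies on chr17:48264295-48275360. It had 14, 23 and 12 counts in infarcts, and 0 in each contralateral cortex. For a lower bound, 3 counts were placed in each contralateral library, near the upper 95% counting limit for a count of 0. The mean level in infarcts was then 5.76-fold higher, a bound that takes the infarct counts as they are. The test called it upregulated (edgeR adjusted *p* = 5.60e-04), while the fitted log2 fold change of 7.12 depends on how a count of 0 is treated and fell to 5.13 with limma voom. Bounds and intervals of this kind cover counting error only, since sequenced reads can be PCR copies of one another.

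*Trem1*, which amplifies inflammatory signals in neutrophils and monocytes, lies on chr17:48232768-48246924 and had 15, 11 and 6 counts in infarcts, and 0 in each contralateral cortex. By the same bound its level in infarcts was at least 3.84-fold higher. The gene missed the count filter, but was called upregulated by edgeR without that filter (adjusted *p* = 4.75e-05) and by DESeq2 (adjusted *p* = 2.61e-04). *Trem3*, an activating receptor that pairs with DAP12 in mice, lies on chr17:48247777-48258841 and had 3, 2 and 1 counts in infarcts, and 0 in each contralateral cortex. No difference was detectable for *Trem3* at this depth, and without the filter its edgeR adjusted *p* was 0.0776. Neutrophil markers were examined because TREM1 is known from these cells. *Elane* was at 0 in every library and *Ly6g* had 0, 2 and 0 counts in infarcts. Of the 10 listed markers, 5 could be tested and 5 were upregulated. Of these, 3 had 3 or fewer counts in each contralateral cortex and so passed the filter through the infarcts. The list had a summed level of 57.7 to 73.0 CPM in infarcts against 4.75 to 6.37 CPM contralaterally. Most of that sum was *Csf3r*, the receptor for granulocyte colony-stimulating factor, which averaged 49.0 CPM in infarcts and is also found on monocytes.

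*Tyrobp*, which encodes the ITAM adaptor DAP12, lies on chr7:30413760-30417585 and had 74.6, 49.6 and 49.7 CPM in infarcts. Its contralateral values were 1.98, 2.28 and 2.12 CPM. Infarct 1 stood above the other infarcts, and all 3 stood above every contralateral cortex. The means were 58.0 ± 14.4 and 2.13 ± 0.147 CPM, a 27.2-fold difference with a log2 fold change of 4.76 (SE 0.24, edgeR adjusted *p* = 3.30e-07).

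*Hcst*, which encodes DAP10, an adaptor whose YxxM motif recruits PI3K, lies next to *Tyrobp* on the opposite strand (chr7:30417712-30419854), with 126 bases between the 3′ ends of the neighbors. It had 34, 38 and 23 counts in infarcts against 0, 1 and 3 counts contralaterally. Every infarct thus held many more reads of this gene than any contralateral cortex, where it was barely counted. Per effective library size the summed counts were 26.4 times higher in infarcts, with a 95% exact interval of 9.97 to 98.8 that covers counting error only. The log2 fold change was 4.56 (SE 0.74, edgeR adjusted *p* = 4.17e-04), and rested in part on single libraries, with 5.97 when contralateral cortex 3 was left out and 3.82 when contralateral cortex 1 was. The exons of *Hcst* and *Tyrobp* do not overlap in GENCODE M21.

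*Syk*, the kinase that docks on phosphorylated ITAMs, had the largest log2 fold change among the members that held 10 counts in every library. It lies on chr13:52583173-52648792 and had 189, 153 and 126 CPM in infarcts against 4.6, 3.45 and 3.88 CPM contralaterally. The lowest infarct was far above the highest contralateral cortex. The means of 156 ± 31.6 and 3.97 ± 0.579 CPM differed 38.9-fold, with a log2 fold change of 5.28 (SE 0.22, edgeR adjusted *p* = 1.64e-07).

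*Plcg2*, the phospholipase C isoform of blood cells and microglia, lies on chr8:117498291-117635142. Its values were 60, 36.1 and 36.9 CPM in infarcts against 3.55, 2.80 and 3.69 CPM contralaterally. As for *Tyrobp*, infarct 1 was the high library of its group. The means of 44.3 ± 13.5 and 3.35 ± 0.480 CPM differed 13.2-fold, with a log2 fold change of 3.73 (SE 0.26, edgeR adjusted *p* = 1.75e-06). Its close relative *Plcg1*, which is used by many cell types, was not called, with 89.8 ± 7.84 CPM in infarcts against 99.1 ± 9.96 CPM contralaterally (log2 fold change -0.14, edgeR adjusted *p* = 0.40).

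*Inpp5d*, the gene of the inhibitory lipid phosphatase SHIP1, had the smallest change of the tested members. It lies on chr1:87620312-87720507, and had 99.7, 87.7 and 77.2 CPM in infarcts against 14.3, 9.25 and 13.8 CPM contralaterally. Contralateral cortex held this transcript in every library, and still below each infarct. The means of 88.2 ± 11.3 and 12.4 ± 2.76 CPM differed 7.10-fold, with a log2 fold change of 2.83 (SE 0.21, edgeR adjusted *p* = 2.37e-06). The related phosphatase *Inppl1* (SHIP2), which is expressed broadly, had a log2 fold change of 1.18 (edgeR adjusted *p* = 1.26e-04).

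In infarcts, 8 of the 10 members were highest in infarct 1, and *Treml4* and *Hcst* were highest in infarct 2. How many of all genes were highest in infarct 1 was not counted, so this only describes the members. Infarct 1 also had the highest summed level of microglia and macrophage markers (2893.9 CPM, against 2393.5 and 2302.5 in infarcts 2 and 3), of B cell markers (307 CPM) and of T and NK cell markers (75.5 CPM, against 34.1 and 22.9). Recruited monocyte, neutrophil and endothelium markers were highest there too. Neuron markers were lowest in infarct 1, with a summed level of 464 CPM against 617 and 1207.4 CPM in infarcts 2 and 3. Other lists were also lowest in infarct 1 and highest in infarct 3. Their sums in infarcts 1, 2 and 3 were 210, 296 and 304 CPM for osteoclast markers and 2552.1, 2780.4 and 3399.4 CPM for astrocyte markers. Oligodendrocyte markers had 3896.9, 4510.5 and 6361.6 CPM. The part of these markers in the spread between infarcts was not tested.

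To see whether the members kept their proportions, each gene's counts were set against the *Tyrobp* counts of the same library, a ratio that does not depend on library scaling. The 5 ratios formed 1 family, and with 3 against 3 libraries the exact two-sided permutation test cannot give a *p* below 0.1. No difference between regions was found for the receptor relative to its adaptor. *Trem2* had 151, 210 and 196 reads per 100 *Tyrobp* reads in infarcts and 242, 146 and 165 in contralateral cortices, and the regions overlapped. The difference in log2 ratio was 0.04 (exact permutation *p* = 0.90, adjusted *p* = 0.90), and its sign turned when any of 4 single libraries was left out, with values between -0.11 and 0.25.

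For the 3 enzymes, the ratios did not overlap between regions. How many of all genes have a ratio to *Tyrobp* without overlap was not counted. *Tyrobp* itself was 27.2-fold higher in infarcts, so any gene that rose less has a lower ratio there. *Syk* had 253, 308 and 253 reads per 100 *Tyrobp* reads in infarcts and 232, 151 and 183 in contralateral cortices. All infarcts were thus above all contralateral cortices, by a log2 difference of 0.55 (exact permutation *p* = 0.10, the smallest possible, adjusted *p* = 0.167). *Plcg2* went the other way, with 80.4, 72.9 and 74.3 reads in infarcts and 179, 123 and 174 in contralateral cortices. The regions did not overlap and the ratio was 2.05-fold lower in infarcts (exact permutation *p* = 0.10, adjusted *p* = 0.167). *Inpp5d* differed most, with 134, 177 and 155 reads per 100 *Tyrobp* reads in infarcts and 718, 406 and 648 in contralateral cortices. Its ratio was 3.67-fold lower in infarcts without overlap (log2 difference -1.88, exact permutation *p* = 0.10, adjusted *p* = 0.167). None of these ratios could pass a threshold of 0.05 in this design. Leaving out single libraries gave log2 differences of 0.41 to 0.71 for *Syk*, -1.21 to -0.94 for *Plcg2* and -2.12 to -1.71 for *Inpp5d*.

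The ratio of the 2 adaptors could not be resolved. *Hcst* had 3.63, 5.63 and 3.16 reads per 100 *Tyrobp* reads in infarcts and 0, 2.86 and 13 in contralateral cortices, where these values rest on 0, 1 and 3 *Hcst* counts. The log2 difference was -0.09 (exact permutation *p* = 0.90, adjusted *p* = 0.90), and it turned to 0.80 with contralateral cortex 3 left out and to 0.08 with infarct 3 left out.

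**Figure D2:**
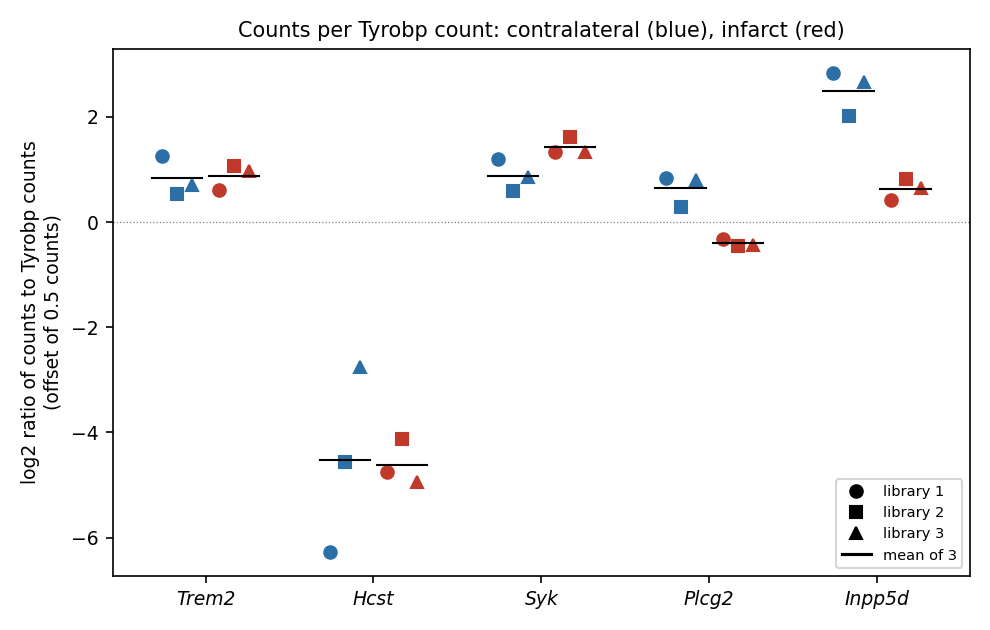
Log2 ratio of each gene's counts to the *Tyrobp* counts of the same library, with 0.5 counts added to both, for contralateral cortices (blue) and infarcts (red); bars are means of 3 libraries. The regions overlap for *Trem2* and *Hcst*, while *Syk* is higher and *Plcg2* and *Inpp5d* are lower in all 3 infarcts.

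For a comparison of levels between genes, CPM was divided by the length of the transcript with the longest coding sequence of each gene. On this scale of CPM per kb, receptor and adaptor led in infarcts, with 99.2 ± 7.33 for *Trem2* and 97.1 ± 24.2 for *Tyrobp*, whose ranges overlapped. *Syk* followed with 29.0 ± 5.90, then *Inpp5d* with 17.9 ± 2.28, and neither overlapped its neighbors in the order. *Treml2* (11.6 ± 2.70) and *Plcg2* (10.3 ± 3.15) overlapped each other and lay above *Hcst* (5.33 ± 1.54). *Treml4* had 1.44 ± 0.528, and *Trem1* and *Trem3* were last with overlapping values of 0.269 ± 0.131 and 0.152 ± 0.0860.

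In contralateral cortices the order of levels began in the same way, with 3.67 ± 0.766 CPM per kb for *Trem2* and 3.57 ± 0.246 for *Tyrobp*, whose ranges overlapped. *Inpp5d* came next at 2.52 ± 0.559, without overlap with its neighbors. *Plcg2* (0.779 ± 0.112) and *Syk* (0.741 ± 0.108) overlapped, and so did *Hcst* (0.258 ± 0.328) and *Treml2* (0.187 ± 0.0866). *Syk* and *Inpp5d* thus changed places between the regions. The lead of *Trem2* depends on the length used. Its annotated exons merge to 4.95 kb, while the transcript used has 1.06 kb, and per kb of merged exons *Tyrobp* stood at 86.9 and *Trem2* at 21.2 in infarcts. *Syk* (16.6) remained above *Inpp5d* (11.6) on that scale, and *Treml2* (4.92) came below *Plcg2* (10.3). In contralateral cortices *Tyrobp* led per kb of merged exons with 3.19, *Inpp5d* followed with 1.63, and *Trem2* (0.784) overlapped *Plcg2* (0.779).

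Around the members, 67 further genes of the TREM, DAP12 and DAP10 pathway were listed by role. Of these, 61 were tested, 48 were upregulated in infarcts, 13 were not called and 6 had too few counts, beside the 25.7% of all tested genes that were upregulated. Of the 48, 13 had 3 or fewer counts in each contralateral cortex, so that they passed the filter through the infarcts and had to differ. This share of 25.7% is also the one to set beside the counts of each role below. The tested genes' median log2 fold change was 3.49, or 3.04 with genes at 0 in all contralateral cortices placed at their bound, beside 0.03 over all tested genes. Of the 13 genes that were not called, *Fyn* (-0.42), *Src* (-0.92), *Sos1* (-0.40) and *Pik3r1* (-0.39) had log2 fold changes within the threshold of 1. Their edgeR adjusted *p* values were 0.0219, 0.0012, 0.0214 and 0.0342. *Cblb* was the 1 uncalled gene that was higher at an adjusted *p* under 0.05 (0.55, edgeR adjusted *p* = 0.0144).

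**Figure D3:**
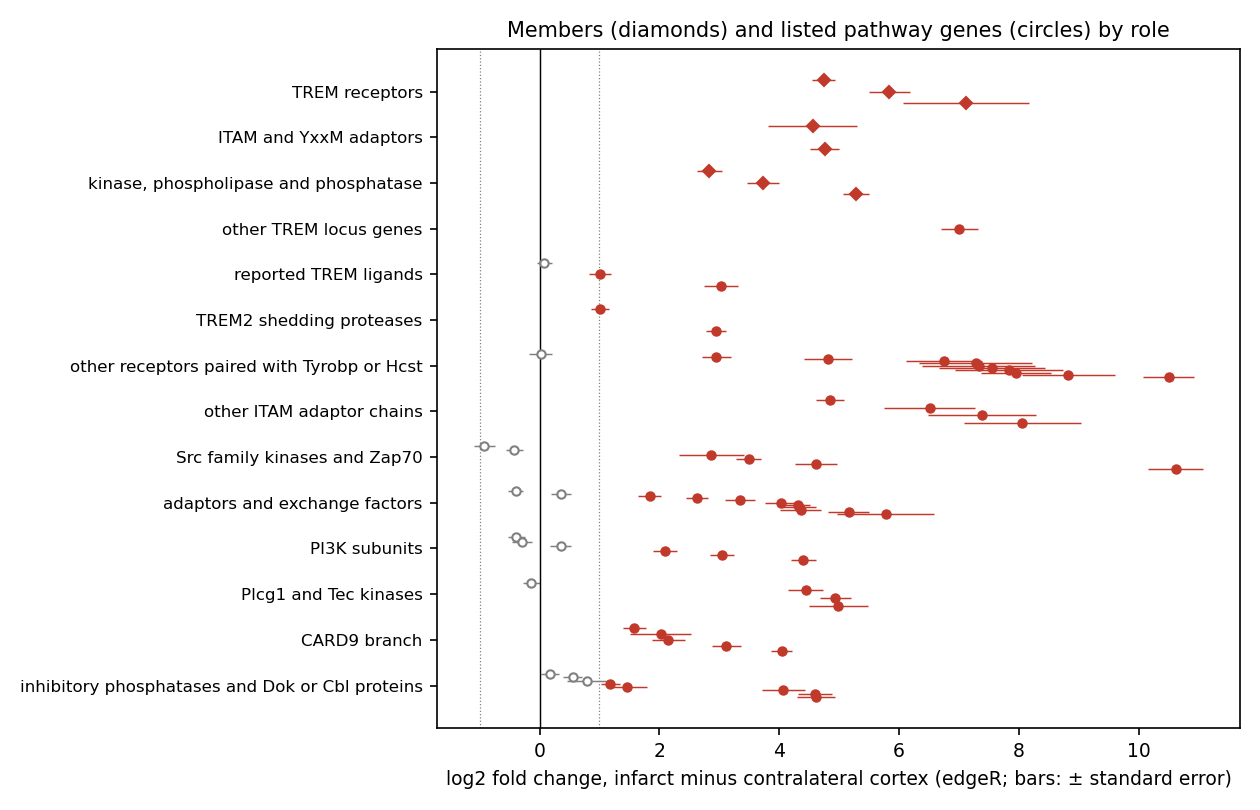
Log2 fold change (infarct minus contralateral cortex, edgeR) with ± standard error for the 8 tested members (diamonds) and 61 tested pathway genes (circles), grouped by role; red marks upregulated genes, open grey symbols genes not called, and dotted lines a log2 fold change of 1 in either direction. Values above 8, such as *Fgr* at 10.62, belong to genes with 3 or fewer counts in each contralateral library.

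Among ligands reported for TREM receptors, 2 of 3 tested genes were upregulated. *Apoe*, the lipid carrier of astrocytes and phagocytes, had 498, 576 and 595 CPM in infarcts against 82.7, 39.6 and 81.8 CPM contralaterally. Every infarct was above every contralateral cortex (log2 fold change 3.03, SE 0.28, edgeR adjusted *p* = 1.55e-05). *Clu*, the apolipoprotein clusterin, was called at 1.01, just past the threshold, and lost the call without infarct 3 (0.92), without contralateral cortex 1 (0.96) or without contralateral cortex 2 (0.89). *Hmgb1*, a nuclear protein released by dying cells, was not called (0.08, edgeR adjusted *p* = 0.604). Both proteases that cleave TREM2 from the cell surface were called. *Adam17* rose by 2.94 on the log2 scale, from 22.4 ± 1.96 to 172 ± 27.1 CPM, whereas *Adam10*, at 1.01, stood between 0.97 and 0.99 and lost its call in 4 of the 6 fits that left out 1 library (infarct 1, infarct 2, contralateral cortex 1 or contralateral cortex 3).

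Other receptors that pair with DAP12 or DAP10 were listed as 13 genes, and 10 of 11 tested were upregulated, of which 8 had 3 or fewer counts in each contralateral cortex and so passed the filter through the infarcts. *Cd300lb*, an activating receptor of myeloid cells, had 872, 1219 and 1024 counts in infarcts against 2, 0 and 0 contralaterally. Contralateral cortex thus gave almost no reads of it. *Clec5a*, a lectin receptor, had 38.8, 27.2 and 25.5 CPM in infarcts against 3.92, 4.62 and 3.23 CPM contralaterally (log2 fold change 2.95, edgeR adjusted *p* = 4.18e-06). *Klrk1*, the NKG2D receptor of NK and T cells that uses DAP10, had 88, 78 and 60 counts in infarcts against 2, 0 and 0 contralaterally. *Sirpb1b* was at least 18.9-fold higher in infarcts by the bound used for *Treml4*. However, reads of the near-identical *Sirpb1a*, *Sirpb1b* and *Sirpb1c*, of *Pilrb1* and *Pilrb2*, and of the *Klra* genes may have been split between copies. The exception was *Siglech*, a DAP12 partner of microglia and plasmacytoid dendritic cells. It had 13.5, 20.4 and 18.6 CPM in infarcts against 18.4, 17.1 and 16.2 CPM contralaterally, with overlapping regions and a log2 fold change of 0.02 (SE 0.19, edgeR adjusted *p* = 0.937).

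In the TREM gene cluster itself, the gene named *B430306N03Rik* in Ensembl, for which RefSeq gives *Treml6* as a synonym, had 1028, 1122 and 985 counts in infarcts against 6, 10 and 10 contralaterally. All infarcts were far above all contralateral cortices, at a log2 fold change of 7.01 (SE 0.31, edgeR adjusted *p* = 1.81e-07). *Treml1*, the TREM-like receptor of platelets, had 4, 6 and 8 counts in infarcts against 2, 4 and 0 contralaterally and was not tested. Of 6 platelet and megakaryocyte markers, 4 were tested, *Pf4* was upregulated and *Gp1bb* was downregulated, and the list summed to 5.42 to 6.89 CPM in infarcts against 5.93 to 9.25 CPM contralaterally. *Gp1bb* alone set that order, since without it the other 5 summed to 4.22 to 4.85 CPM in infarcts and to 1.04 to 2.35 CPM contralaterally.

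The other ITAM chains were upregulated in 4 of 4 cases, but 3 of these (*Cd247*, *Cd79a* and *Cd79b*) had 3 or fewer counts in each contralateral cortex and passed the filter through the infarcts. *Fcer1g*, the Fc receptor gamma chain of myeloid cells, had 195, 132 and 152 CPM in infarcts against 5.59, 4.36 and 6.74 CPM contralaterally. Its log2 fold change of 4.85 (SE 0.23, edgeR adjusted *p* = 2.49e-07) was close to that of *Tyrobp*. *Cd247*, the T cell receptor zeta chain, had 110, 59 and 34 counts in infarcts against 0, 1 and 0 contralaterally. *Cd79a* and *Cd79b*, the chains of the B cell receptor, summed to 560 and 268 counts in infarcts against 2 and 3 counts contralaterally. T and NK cell markers moved with them: 6 of 6 were upregulated, 5 of them with 3 or fewer counts in each contralateral cortex, with a summed level of 22.9 to 75.5 CPM in infarcts and at most 0.47 CPM in contralateral cortices.

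Of the Src family kinases, which phosphorylate ITAMs, and *Zap70*, 4 of 6 were upregulated. The myeloid kinases *Lyn* (3.49) and *Fgr* (10.62) rose on the log2 scale, and *Fgr* had 723, 668 and 581 counts in infarcts against 0, 0 and 1 contralaterally. *Zap70*, the SYK relative of T and NK cells, rose by 2.87 but remained scarce in CPM, at 2.72 ± 1.06 in infarcts. *Src* had 33.9, 39.5 and 48.7 CPM in infarcts against 71.8, 88.3 and 70.8 CPM contralaterally. It passed the fold threshold as downregulated only when infarct 3 was left out (-1.05).

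Adaptors and exchange factors between SYK and its effectors were upregulated in 9 of 11 cases. *Lcp2* (SLP-76), which assembles complexes with phospholipase C, rose by 4.03 on the log2 scale, *Blnk* by 3.35, *Vav1*, an exchange factor of blood cells, by 4.33, *Sh3bp2* by 4.31 and the PI3K adaptor *Pik3ap1* by 5.16. *Grb2* (0.36) and *Sos1* (-0.40) were not called. Among PI3K subunits, the leukocyte genes *Pik3r5* (4.40), *Pik3cg* (3.04) and *Pik3cd* (2.10) were upregulated, and the broadly expressed *Pik3ca* (-0.29), *Pik3cb* (0.35) and *Pik3r1* (-0.39) were not called. The Tec kinases *Btk* (4.94) and *Tec* (4.44), which phosphorylate phospholipase C gamma, were upregulated.

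Of the branch from protein kinase C to NF-κB and NFAT, 5 of 5 genes were upregulated. *Prkcd*, which phosphorylates CARD9, had 109, 113 and 91.5 CPM in infarcts against 6.84, 5.60 and 6.64 CPM contralaterally, a log2 fold change of 4.04 (SE 0.17, edgeR adjusted *p* = 1.79e-07). *Card9* itself was scarce, with 2.41 ± 0.616 CPM in infarcts against 0.549 ± 0.379 CPM, and rose by 2.02. *Bcl10* (1.58), *Malt1* (2.15) and the transcription factor *Nfatc1* (3.12) rose as well. On the inhibitory side, 5 of 8 genes were upregulated. The phosphatase *Ptpn6* (SHP-1) rose by 4.6 on the log2 scale, and the docking proteins *Dok1*, *Dok2* and *Dok3* rose by 4.62, 4.07 and 1.46. *Ptpn11* (SHP-2) at 0.17 and the ubiquitin ligases *Cbl* at 0.80 and *Cblb* at 0.55 were not called, and *Cbl* was called upregulated only without infarct 2 (1.13).

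Single markers of the microglia and macrophage list lay on both sides of *Trem2* in size of change. The phagocyte gene *Cd68* (5.86) and the general leukocyte gene *Ptprc* (5.81) had larger log2 fold changes than *Trem2*, and *Adgre1* had the same value (4.74). *Csf1r* was at 1.96 and the microglial purinergic receptor *P2ry12* was not called (-0.20, edgeR adjusted *p* = 0.32). Recruited monocyte markers were upregulated in 5 of 6 cases, with sums of 213 to 380 CPM against 30.3 to 33.7 CPM. Of the 5, 2 had 3 or fewer counts in each contralateral cortex and passed the filter through the infarcts. Of 5 astrocyte markers, *Gfap* (4.81) and *Aqp4* (1.68) were upregulated, while *Gja1* (0.59), *Slc1a3* (-0.37) and *Aldh1l1* (-0.49) were not called. The part of these cell types in the differences of the TREM genes was not tested.

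The profile of *Trem2* over the 6 libraries was most like those of *C2*, a complement component, *Gla*, a lysosomal galactosidase, and *Ifi203*, an interferon-inducible gene, with Pearson correlations of log2(CPM + 0.5) of 0.99996, 0.99981 and 0.99973. The profile of *Tyrobp* was most like those of *Dock2* (0.99979), *Thbs2* (0.99977) and *Cd37* (0.99976). With 2 regions that lie far apart such values are easily reached: 3385 genes passed 0.95 with *Trem2* and 3450 with *Tyrobp*. The correlation between *Trem2* and *Tyrobp* was 0.994, which ranked *Tyrobp* at 595 for *Trem2* and *Trem2* at 714 for *Tyrobp*. These are descriptions over 6 libraries that share the region difference.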

How the data were processed

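RNA-Seq libraries were made from 3 infarcts and 3 contralateral cortices. The authors made stranded mRNA libraries, demultiplexed with bcl2fastq 2.19, trimmed with Trimmomatic 0.32, aligned to GRCm38 with STAR 2.5.2b and counted with htseq-count. The version, annotation and strand setting of the counting are not given in the sources used here. The deposited values are raw counts per Ensembl gene, and the 5 tallies of reads without a gene were not used. Between 65.74% and 73.36% of tallied reads fell on genes. Identifiers were matched to GENCODE M21 (45143 found, 935 not).

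From these counts, edgeR 4.0.16 in R 4.3.3 (filterByExpr, TMM, robust glmQLFit, glmQLFTest, region as only term) gave fold changes, with standard errors derived from the log2 fold change and its F statistic, and with Benjamini-Hochberg adjustment over 15554 genes and a biological coefficient of variation of 0.22. The procedure was tested on simulated data in which a small share of well counted genes changed. That setting does not cover scarce genes or a difference that spans as many genes as here. Ratios were tested by exact permutation with SciPy 1.17.1. The members and gene lists were chosen with earlier results of these data known. All members, and the pathway, marker and most similar genes (the 3 with the highest correlation) that a sentence needs, are named, apart from some genes that are not reported here. Alternatives were DESeq2 1.42.0, limma 3.58.1 voom, RLE factors, library totals, no count filter, 10 counts in every library, no fold threshold, glmTreat, the replicate number as a block, 1 count in place of 0.5 as the ratio offset, and each library left out.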

Additional observations from a re-analysis of the deposited data

How the results depend on the processing

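All 8 tested members kept their upregulated call under every alternative that could test them, which was 15 alternatives, or 14 for *Treml2*, *Treml4* and *Hcst*. The number of upregulated members was 8 to 9 across them, with *Trem1* as the added gene, apart from 5 when every library had to hold 10 counts, where fewer genes were tested. The pathway list had 48 upregulated genes, 44 to 49 under the alternatives, and 25 under that same requirement of 10 counts. Leaving out 1 library at a time gave 8 to 9 members and 46 to 48 pathway genes. glmTreat dropped *Clu*, *Adam10*, *Inppl1* and *Dok3*. With the replicate number as a replicate block, 8 members and 48 pathway genes were called, and the *Trem2* log2 fold change was 4.76. For the ratios to *Tyrobp* the block cannot change the difference, since the mean of same-number differences equals the difference of the means. Only the *p* value can move, and the exact sign-flip test over same-numbered libraries gave *p* = 0.25 for *Syk*, *Plcg2* and *Inpp5d*. The deviations of same-numbered libraries correlated at -0.205, 0.111 and 0.0225, and those of differently numbered libraries at -0.269 to 0.19. Since these ranges overlap, the correlations cannot tell whether the numbers pair the samples. Of the ratios to *Tyrobp*, that of *Trem2* (0.04) ranged from -0.11 to 0.25 with 1 library left out and turned negative in 4 of 6 cases, and that of *Hcst* (-0.09) ranged from -0.96 to 0.80 and turned positive in 2 cases, with the cause not tested. An offset of 1 count moved the *Hcst* ratio to -0.58. Depth limits *Trem1*, *Trem3*, *Treml4* and *Hcst*, which had 3 or fewer counts in every contralateral library.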

Other observations

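2 further genes of the TREM cluster, chosen after the tables were seen, carry TREM names as RefSeq synonyms. *A530064D06Rik* (synonym *Trem4*) on chr17:48149126-48167275 had 185, 196 and 152 counts in infarcts and 2, 0 and 0 in contralateral cortices. Its summed counts per effective library size were 296 times higher in infarcts, with a 95% exact interval of 81.5 to 2450.2, and it was called upregulated (edgeR adjusted *p* = 1.16e-06). Its neighbor *9830107B12Rik* (synonym *Trem5*) had 0 counts in every library.

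Osteoclasts are known to need TREM2 and DAP12, and 6 osteoclast markers were listed. *Acp5*, the tartrate-resistant acid phosphatase, had 1105, 1018 and 1136 counts in infarcts and 1, 1 and 4 in contralateral cortices, and *Ctsk*, the protease cathepsin K, had 1506, 2977 and 3290 counts against 71, 71 and 48. *Dcstamp*, a fusion protein, was upregulated with 24, 28 and 22 counts against 0, 2 and 5. *Oscar*, a receptor of the osteoclast lineage, was downregulated (log2 fold change -2.13, edgeR adjusted *p* = 0.00321), *Ocstamp* had at most 5 counts in any library, and the defining calcitonin receptor *Calcr* had at most 2.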
